A study of Mus musculus with 18 samples.

Results

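The macrophage markers described here are 10 mouse genes that are widely used to recognise macrophages and other myeloid cells: Adgre1, Csf1r, Itgam, Tyrobp, Fcer1g, Cd14, Mrc1, Cd68, Lyz2 and Lgals3. They were found on the arrays by gene name, older aliases included (Emr1 for Adgre1, Lyzs for Lyz2), and they account for 16 of the 41174 gene probes and 10 of the 27670 gene names. A probe was kept for testing if 3 or more arrays had its tissue signal well above background, as was true of at least 1 probe of 9 of the 10 genes. All but Itgam were thus tested, among 14684 genes in all.

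On each of the 18 two-colour arrays, amplified RNA from a thyroid region (Cy5) competed with the same reference RNA (Cy3). The regions came from male C57BL/6 mice, whose frozen thyroid sections were laser-captured, and they form 4 groups: the central area after partial thyroidectomy (dissected central, 5 arrays), the peripheral area after partial thyroidectomy (dissected peripheral, 5 arrays), the central area of unoperated glands (normal central, 5 arrays) and the peripheral area of unoperated glands (normal peripheral, 3 arrays). The reference was a commercial pool of total RNA from Swiss Webster mice (spleen, thymus, lung, liver, kidney, heart, brain, ovary, testicle and embryo), tissues that hold myeloid cells of their own. Age, the time after surgery and the mouse behind each region are not given in the sources used here, so regions may share mice and the p-values over regions may be too small.

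Macrophages live in every solid tissue, where they take up dead cells and debris, and monocytes from the blood join them after injury. Their survival depends on the CSF1 receptor, and many of their activating receptors signal through small adaptor proteins that carry an ITAM, a motif with spaced tyrosines that binds the kinase Syk once phosphorylated. In the thyroid they are known to lie between the follicles. Because each array averages over a captured region, fewer cells of a type and less RNA per cell cannot be told apart.

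Values are log2 ratios of tissue over reference, so a value of 0 is a signal equal to the reference after normalization and a difference of 1 is a 2-fold difference. They compare a gene between arrays and not 1 gene with another. On an array, 24.8% to 44.0% of the gene probes exceeded background clearly in Cy5, and the 4 arrays with the lowest shares were normal peripheral 1, dissected central 1 and 2 and dissected peripheral 1. Thyroid genes were measured, with a kept probe for 11 of 13 listed thyrocyte genes and 12 of 13 listed genes of C cells, the calcitonin cells. C cells lie in the centre of the lobe, and the mean log2 ratio over their 12 genes was -1.31 to 1.13 on dissected central, -2.59 to -2.15 on dissected peripheral, 0.69 to 1.57 on normal central and -1.83 to -0.99 on normal peripheral arrays. The library labelled dissected central 2 had the -1.31. This value lay within the range of the normal peripheral arrays, which goes against its central label, but above every dissected peripheral array. That library is also among the 4 arrays with the lowest shares above background. Without it 0 markers were called in any comparison, and the central differences, dissected minus normal, were 0.86 for Adgre1, 0.43 for Tyrobp, 0.57 for Lgals3 and 0.13 for Csf1r. Across 14684 genes the median 95% interval of a dissected minus normal difference reached 0.41 to either side in the central and 0.47 in the peripheral area. The number of arrays limits the precision, and several markers had wider intervals than the median gene. That of Adgre1 ran from 0.29 to 1.52 in the central and from -0.66 to 0.76 in the peripheral area. Those of Tyrobp were narrower, at 0.06 to 0.81 and -0.18 to 0.68.

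The sequences of 4 probes are shown, of which some were read on every array and others on none. The Tyrobp probe lies at chr7:27358831-27360558 (build mm7, plus strand) and the Lgals3 probe at chr14:42712515-42713331 (build mm7, plus strand). Both span more of the genome than their 60 bases, so each crosses at least 1 exon junction and reads spliced transcript. In the Tyrobp probe, capitals mark the codons from the tyrosine to the leucine of the first YxxL stretch of its ITAM. The other 2 probes, of Adgre1 at chr17:55613754-55613813 (plus strand) and of Lyz2 at chr10:116790004-116790063 (minus strand), both on mm7, are upstream probes that were not well above background on any array. They carry no capitals.
Tyrobp probe: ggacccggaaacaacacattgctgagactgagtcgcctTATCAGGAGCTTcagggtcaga
Lgals3 probe: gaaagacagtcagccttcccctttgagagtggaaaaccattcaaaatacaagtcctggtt
Adgre1 upstream probe: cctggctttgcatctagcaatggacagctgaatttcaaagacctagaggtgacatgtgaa
Lyz2 upstream probe: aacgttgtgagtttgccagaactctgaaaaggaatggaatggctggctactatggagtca

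Probes of 1 gene differed in whether they could be read. For Adgre1, the probe nearest the 3′ end (chr17:55686649-55686708) was well above background in Cy5 on 18 of 18 arrays and the probe shown above, 72895 bases upstream in the genome, on 0. Lyz2 behaved alike, with 18 arrays for the downstream probe (chr10:116785279-116785338) and 0 for the probe shown above, 4725 bases away. For Csf1r, on chromosome 18, the probe nearest the 3′ end was above background on 18 arrays and the 2 probes 685 to 20962 bases upstream on 0. In each of these genes the upstream probe was also not above background in Cy3, that is, in the reference. This was counted over 8492 genes with several probes near each other on 1 chromosome and strand. The 3′-most probe was above background on more arrays than every upstream probe in 51.7%. The best upstream probe was above background on more arrays in 24.7%, and 1999 genes were ties. Whether the position or the sequence of a probe goes with its low signal was not tested, and low values of upstream probes were not read as missing transcripts.

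**Figure D1:**
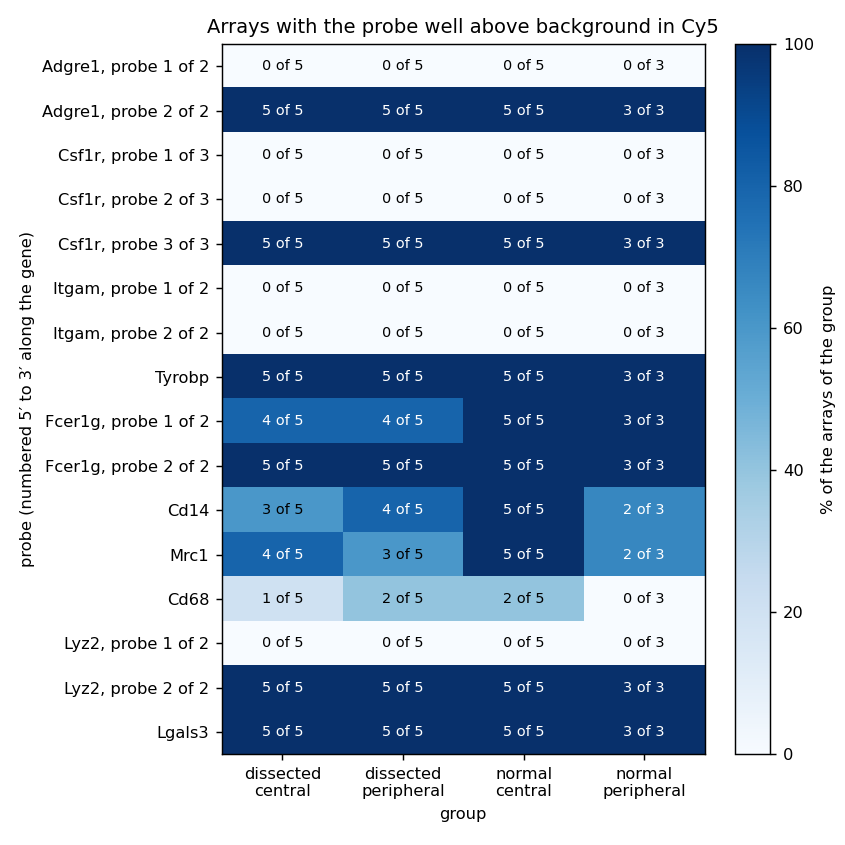
Number of arrays of each group on which each of the 16 probes was well above background in Cy5, with shading by the share of the group's arrays; probes of 1 gene are numbered 5′ to 3′. The 3′-most probe of Adgre1, Csf1r and Lyz2 was above background on all 18 arrays and their upstream probes on 0, while Itgam was above background on none and Cd68 on 5.

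Itgam encodes the alpha M chain (CD11b) of the complement receptor CR3. Its 2 probes, 541 bases apart on chromosome 7, were not well above background in Cy5 or Cy3 on any array, so Itgam was not measured in either tissue or reference. The Cd68 probe (chr11:69746386-69746445) was above background in Cy5 on 1 dissected central, 2 dissected peripheral, 2 normal central and 0 normal peripheral arrays, so its values are mostly near the floor. Cd14 and Mrc1 were each above background in Cy5 on 14 arrays. Adgre1, Csf1r, Tyrobp, Fcer1g, Lyz2 and Lgals3 were above background on all 18, and no member spot was saturated.

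After partial thyroidectomy no macrophage marker passed the test in either area. The markers with the smallest p-values for dissected minus normal were Lgals3 in the peripheral area and Adgre1 and Tyrobp in the central area. Averaged over both areas, the Lgals3 difference was 1.85-fold and was not called. In the central area 0 of the 9 tested markers were called (limma, Benjamini-Hochberg adjusted over 14684 genes), and 2 had an unadjusted p under 0.05, both higher, against 1.95% of all genes in that direction and 5.24% in either. In the peripheral area 0 were called and 1 had an unadjusted p under 0.05, higher, against 4.43% of all genes in that direction and 8.34% in either. Averaged over both areas 0 were called and 3 had an unadjusted p under 0.05, all higher, against 3.6% of all genes in that direction and 7.03% in either. No other gene was called in these comparisons either, as 0% of the 14684 genes passed in each. The median over the 9 markers was 0.32 in the central area, 0.14 in the peripheral area and 0.30 averaged over both, beside medians over all genes of -0.0061, 0.0055 and -0.0054, and 7, 8 and 7 of the 9 lay above 0. Of all genes, 48.7%, 51% and 48.7% lay above 0. The peripheral 8 includes Cd68, which was not above background on any normal peripheral array. That count was 6 with Cy5 alone or with the scanner program's processed intensities, and 7 with the deposited ratios. The central median was 0.14 without dissected central 1. The peripheral one was 0.02 without normal peripheral 2, 0.38 without normal peripheral 1 and 0.23 without dissected peripheral 2. The averaged one was 0.19 without normal peripheral 2. The number at an unadjusted p under 0.05 was 1 in the central area without normal central 4 or dissected central 3, and 1 averaged over both areas without normal peripheral 2.

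**Figure D2:**
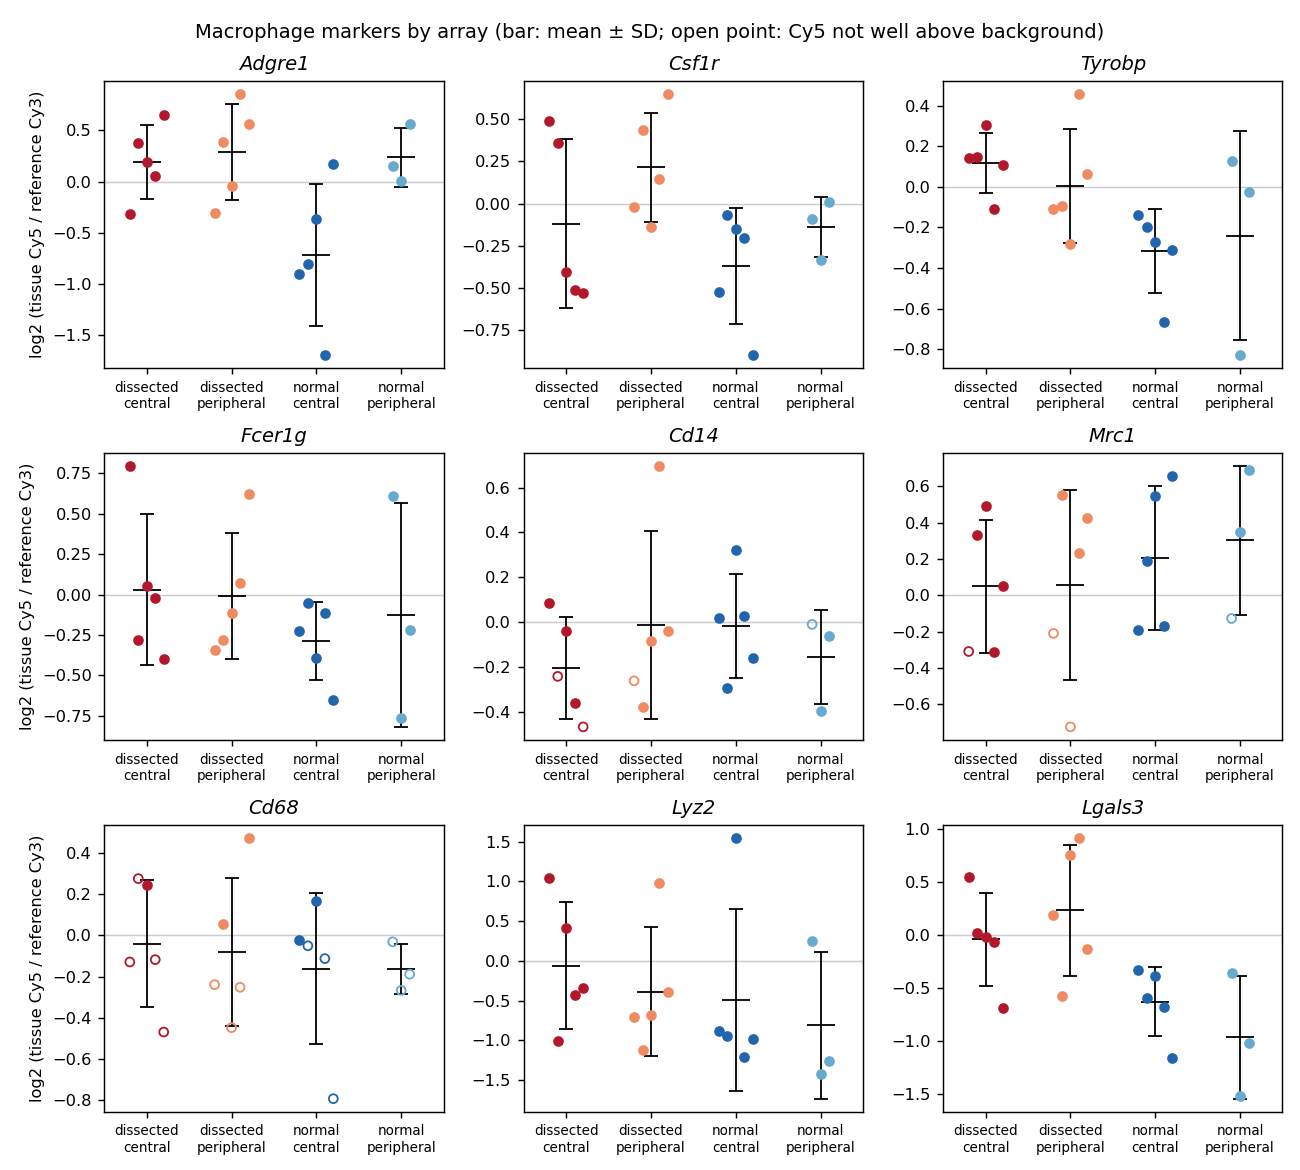
Log2 ratio of tissue Cy5 over reference Cy3 for the 9 measured markers on each of the 18 arrays, in the 4 groups; bars give the mean and SD of a group and open points mark arrays on which the Cy5 spot was not well above background. Tyrobp in the central area shows no overlap between dissected and normal arrays, whereas the other markers overlap.

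**Figure D3:**
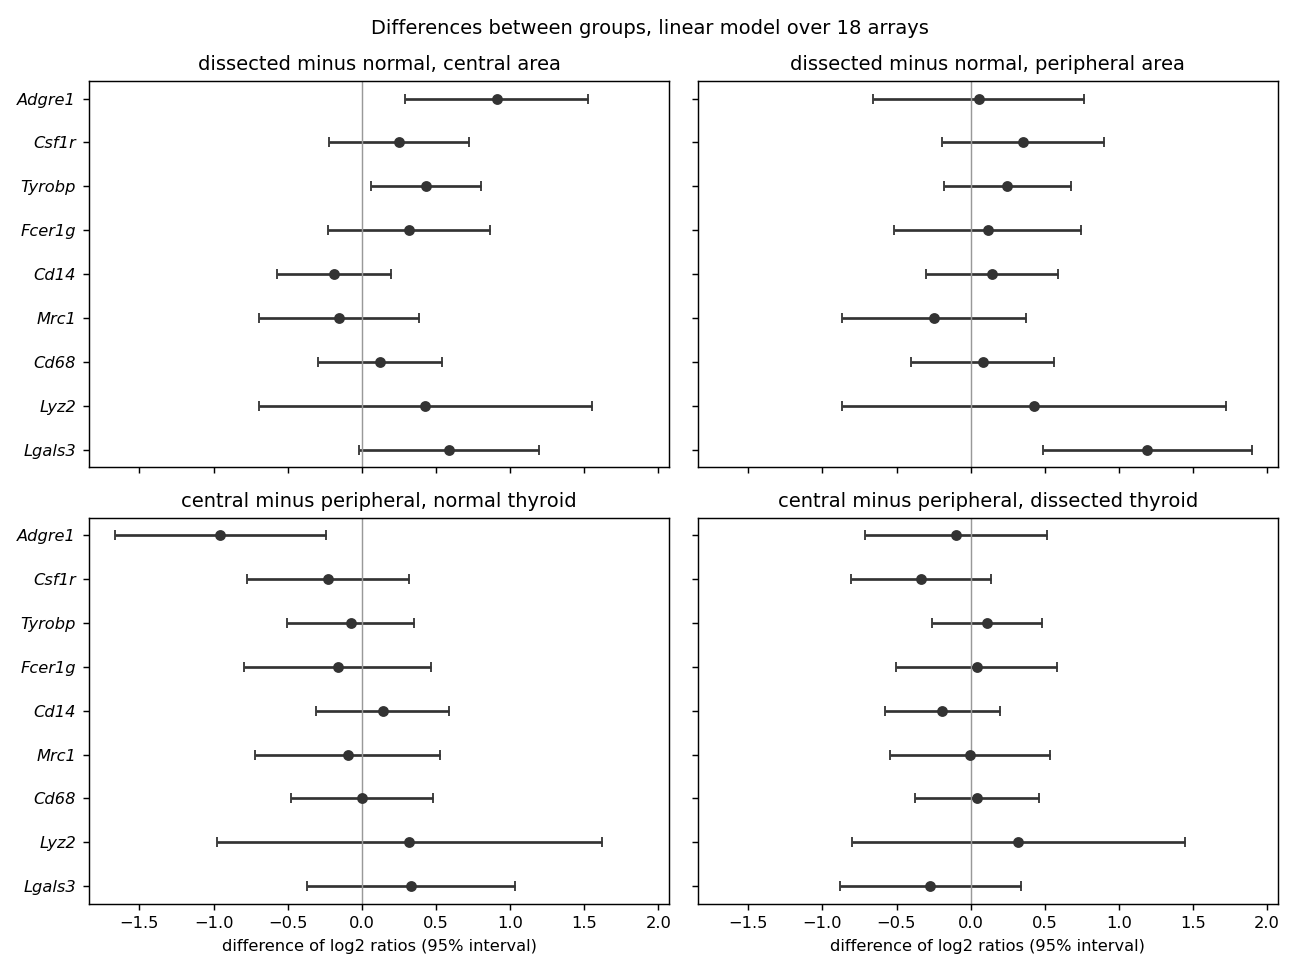
Differences between groups on the log2 scale for the 9 measured markers with 95% intervals from the linear model over 18 arrays, in 4 panels with 1 comparison each. The intervals of Adgre1 and Tyrobp in the central area and of Lgals3 in the peripheral area lie above 0 for dissected minus normal, and that of Adgre1 lies below 0 for central minus peripheral in normal thyroid, all before adjustment for the number of genes.

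Adgre1 encodes F4/80, an adhesion receptor of the EGF-7TM family that is the classic surface marker of mouse tissue macrophages. Its central log2 ratios were -0.32, 0.38, 0.19, 0.05 and 0.65 on the dissected arrays, against -0.90, -0.80, -0.36, -1.69 and 0.17 on the normal arrays. The peripheral values were -0.31, 0.39, -0.04, 0.85 and 0.56 on the dissected arrays, against 0.15, 0.0042 and 0.56 on the normal arrays. The low group is normal central: 4 of its 5 arrays lay below every array of the other 3 groups, and the remaining array lay among them. The means were 0.19 ± 0.36 in dissected central, 0.29 ± 0.47 in dissected peripheral and -0.72 ± 0.69 in normal central tissue (SD, n = 5 each), and 0.24 ± 0.29 in normal peripheral tissue (SD, n = 3).

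The central difference of Adgre1, dissected minus normal, was 0.91 (SE 0.29, 95% interval 0.29 to 1.52, limma adjusted p = 0.700, unadjusted 0.0062). It was above 0 on every slide with both groups (5 slides), at 0.48 to 1.74, and it was 1.15 on the first and 0.75 on the second of the 2 scan days. In the peripheral area the difference was 0.05 (SE 0.34, limma adjusted p = 0.983), and it turned to -0.21 with Cy5 alone. The difference between these 2 differences was 0.85 (SE 0.45, limma adjusted p = 0.790, unadjusted 0.072), so a larger change in the central area was not shown. Among all 4 groups Adgre1 had an F test adjusted p of 0.280 in limma.

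Csf1r encodes the receptor tyrosine kinase for CSF1 and IL-34, the growth factors on which most tissue macrophages depend. Its log2 ratios in the central area were 0.49, 0.36, -0.41, -0.51 and -0.53 on the dissected arrays, against -0.52, -0.07, -0.15, -0.21 and -0.90 on the normal arrays. Those of the peripheral area were -0.02, 0.43, -0.14, 0.15 and 0.65 on the dissected arrays, against -0.09, -0.33 and 0.01 on the normal arrays. The dissected central arrays fell into 2 high and 3 low ones, and the 2 high ones are among the 4 weakest arrays. The differences, dissected minus normal, were 0.25 (SE 0.22) in the central and 0.35 (SE 0.26) in the peripheral area, with limma adjusted p-values of 0.998 and 0.741. The central difference was 0.10 without dissected central 1, 0.13 without dissected central 2 and 0.12 without normal central 5. Without the 4 weakest arrays it was -0.11, and on the first scan day alone it was -0.28, against 0.60 on the second.

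The ligands and downstream genes of this receptor gave a mixed picture. Of 17 listed genes of CSF1 receptor ligands, related cytokine receptors, signalling proteins and myeloid transcription factors, 13 were measured and 0 were called by limma after dissection in either area or averaged over both. At an unadjusted p under 0.05, 2 were higher and 0 lower in the central area, and 2 were higher and 2 lower in the peripheral area. Of all genes, 5.24% and 8.34% had such a p in these areas, in either direction. Il34, the second ligand of the receptor, was higher by 0.49 in the central and 0.73 in the peripheral area (averaged 0.61, SE 0.19, limma adjusted p = 0.447), while Csf1, the first ligand, had differences of -0.37 and -0.36 (averaged -0.37, SE 0.27, limma adjusted p = 0.838). Spi1, the transcription factor PU.1 of the myeloid lineage, had no kept probe.

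Tyrobp encodes DAP12, an ITAM adaptor that couples TREM2 and related receptors to Syk in myeloid and NK cells. In the central area its log2 ratios, from the probe shown above, were 0.14, 0.14, 0.31, -0.11 and 0.11 on the dissected arrays, against -0.14, -0.20, -0.27, -0.67 and -0.31 on the normal arrays. In the peripheral area they were -0.11, -0.10, -0.28, 0.46 and 0.06 on the dissected arrays, against 0.13, -0.83 and -0.03 on the normal arrays. The central groups did not overlap, although the lowest dissected and the highest normal array were close, and the peripheral groups overlapped. Of all 14684 genes, 1% had central arrays that did not overlap in either direction and 0.429% with the dissected ones higher. The central means were 0.12 ± 0.15 in dissected and -0.32 ± 0.21 in normal tissue (SD, n = 5 each).

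The central difference of Tyrobp was 0.44 (SE 0.18, 95% interval 0.06 to 0.81, limma adjusted p = 0.868, unadjusted 0.0243), a fold of 1.35. It was above 0 on all 5 slides that held both groups, at 0.28 to 0.58, and it was 0.57 and 0.35 on the 2 scan days. The peripheral difference was 0.25 (SE 0.20, limma adjusted p = 0.772), and it turned to -0.05 without normal peripheral 2, the lowest array. Averaged over both areas Tyrobp differed by 0.34 (SE 0.13, limma adjusted p = 0.583).

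Fcer1g encodes the Fc receptor gamma chain, the ITAM adaptor of Fc receptors, which mast cells, NK cells and neutrophils use as well. Its central log2 ratios were 0.80, -0.28, 0.06, -0.02 and -0.40 on the dissected arrays, against -0.23, -0.05, -0.39, -0.12 and -0.65 on the normal arrays. The peripheral values were -0.34, -0.28, -0.11, 0.07 and 0.62 on the dissected arrays, against 0.61, -0.76 and -0.22 on the normal arrays. All groups overlapped, and dissected central 1, dissected peripheral 5 and normal peripheral 1 each stood well above the rest of their group. The differences, dissected minus normal, were 0.32 (SE 0.26) in the central and 0.12 (SE 0.30) in the peripheral area, with limma adjusted p-values of 0.998 and 0.949. The central difference was 0.13 without dissected central 1. The peripheral one had no stable sign: it was -0.04 without dissected peripheral 5, -0.20 without normal peripheral 2 and 0.48 without normal peripheral 1. The second kept probe of Fcer1g, 52 bases upstream, gave 0.16 (SE 0.15) and 0.20 (SE 0.17).

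Of 25 listed receptor partners and signalling genes of these adaptors, 16 were measured, and 0 were called by limma or had an unadjusted p under 0.05 in either area. Averaged over both areas 0 were called and 2 had an unadjusted p under 0.05, both higher, against 3.6% of all genes in that direction. They were Fcgr4, an activating Fc receptor for IgG that needs the gamma chain (0.42, SE 0.16, limma adjusted p = 0.572), and Trem2, a lipid-binding receptor that signals through DAP12 (0.52, SE 0.24, limma adjusted p = 0.705). Fcgr4 was singled out after its values were seen. Syk had no kept probe. Mast cell genes also stood high in dissected central tissue: the mean over 6 measured mast cell genes was 0.37 there (range -0.18 to 0.69), -0.26 in dissected peripheral (-0.42 to -0.02), -0.11 in normal central (-0.28 to 0.12) and -0.17 in normal peripheral tissue (-0.27 to -0.03), and their part in the Fcer1g values was not tested. Of the mast cell genes, 1 was called by limma in any comparison: Mcpt4, a mast cell chymase, was higher in central than in peripheral dissected thyroid by 1.75 (SE 0.31, adjusted p = 0.010).

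Cd14 encodes the co-receptor that hands lipopolysaccharide to TLR4 and MD-2. Its log2 ratios in the central area were 0.08, -0.24, -0.04, -0.36 and -0.47 on the dissected arrays, against 0.02, -0.29, 0.32, 0.03 and -0.16 on the normal arrays. Those of the peripheral area were -0.26, -0.38, -0.08, 0.70 and -0.04 on the dissected arrays, against -0.01, -0.40 and -0.06 on the normal arrays. The groups overlapped in both areas, and dissected peripheral 4 stood far above the rest. The differences were -0.19 (SE 0.18, limma adjusted p = 0.998) in the central and 0.14 (SE 0.21, limma adjusted p = 0.898) in the peripheral area. The sign of the peripheral difference rested on dissected peripheral 4, without which it was -0.03. Of 13 listed lipopolysaccharide-sensing genes 9 were measured and 0 were called by limma. At an unadjusted p under 0.05 were 0 in the central area and 1 in the peripheral area, against 5.24% and 8.34% of all genes. Averaged over both areas, Tlr4 differed by 0.09 (SE 0.22) and Ly96, which encodes MD-2, by -0.13 (SE 0.21).

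Mrc1 encodes the mannose receptor CD206, an endocytic lectin of resident and alternatively activated macrophages. In the central area its log2 ratios were -0.31, 0.33, 0.49, -0.31 and 0.05 on the dissected arrays, against -0.19, 0.19, 0.55, -0.17 and 0.66 on the normal arrays. In the peripheral area they were -0.21, 0.55, -0.73, 0.23 and 0.42 on the dissected arrays, against -0.13, 0.35 and 0.69 on the normal arrays. The groups overlapped widely. Mrc1 was the marker whose difference, dissected minus normal, lay below 0 in both areas, at -0.16 (SE 0.25, limma adjusted p = 0.998) and -0.25 (SE 0.29, limma adjusted p = 0.865), the second of which turned to 0.15 on the second scan day alone. With single arrays left out they ran from -0.27 to -0.04 in the central area (nearest 0 without normal central 5) and up to -0.05 in the peripheral area (without dissected peripheral 3). Cd163, the haemoglobin scavenger receptor of a similar macrophage state, differed by -0.32 in the central and 0.0085 in the peripheral area (averaged -0.16, SE 0.32, limma adjusted p = 0.943).

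Cd68 encodes a heavily glycosylated lysosomal membrane protein related to the LAMP family. Its log2 ratios ran from -0.47 to 0.27 in dissected central tissue (median -0.12), from -0.45 to 0.47 in dissected peripheral tissue (median -0.24), from -0.79 to 0.17 in normal central tissue (median -0.05) and from -0.27 to -0.03 in normal peripheral tissue (median -0.19). The ranges of all 4 groups overlapped. The differences, dissected minus normal, were 0.12 (SE 0.20, limma adjusted p = 0.998) in the central and 0.08 (SE 0.23, limma adjusted p = 0.953) in the peripheral area. No normal peripheral array was above background, so no fold or direction was read there. The peripheral difference turned to -0.06 without dissected peripheral 5, and the central one to -0.04 without normal central 5.

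Lyz2 encodes lysozyme M, the bacteriolytic enzyme of macrophages and neutrophils. Its central log2 ratios were 1.04, -1.01, 0.42, -0.43 and -0.34 on the dissected arrays, against -0.88, -0.94, 1.55, -1.20 and -0.98 on the normal arrays. The peripheral values were -0.70, -1.12, -0.69, 0.99 and -0.39 on the dissected arrays, against 0.25, -1.42 and -1.26 on the normal arrays. Lyz2 varied most among the markers, with an SD of 0.80 to 1.15 within a group, and in the dissected peripheral and both normal groups a single array lay well above the others. The highest of all was normal central 3, whose Cy5 intensity was 57552, while the other normal central arrays had 6534 to 13594. The differences, dissected minus normal, were 0.43 (SE 0.53, limma adjusted p = 0.998) in the central and 0.43 (SE 0.61, limma adjusted p = 0.895) in the peripheral area. The central difference was 0.94 without normal central 3, and over the 2 scan days it was -0.18 and 0.83. The peripheral difference was 0.08 without dissected peripheral 4, 0.12 without normal peripheral 2, 0.20 without normal peripheral 3 and 0.96 without normal peripheral 1.

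The array-to-array variation of Lyz2 was shared by Lyz1, the neighbouring gene on chromosome 10 that encodes lysozyme P of Paneth cells. The log2 ratio of Lyz1 was 2.42 on normal central 3 and -1.15 to 0.74 on the other 17 arrays. Across 18 arrays Pearson's r between Lyz2 and Lyz1 was 0.87 and Spearman's rho 0.80. Without normal central 3 and dissected central 1, the 2 arrays farthest from the median of Lyz2, r was 0.82. The arrays share their reference, slides and amplification, so this is a description. The Lyz1 probe matched the Lyz2 probes at no more than 42.0% of bases in the best ungapped placement. The overlaps compared were 31 and 50 bases. Probes were set against each other and not against the other gene's transcript, so this match cannot show whether they cross-bind. Whether either probe also binds the other gene's transcript was not tested, so the 2 genes are uncertain as separate readings.

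The promoters of Lyz2 (chr10:117282223-117282522, minus strand) and Lyz1 (chr10:117292819-117293118, minus strand), from RefSeq on build GRCm38.p6, are shown because the 2 genes varied together. Each window runs from 250 bases before to 50 after the annotated start. They hold the same base in the same place at 201 of 300 positions, and capitals mark the longest such run, 86 bases from 50 before to 36 after the start.
Lyz2 promoter: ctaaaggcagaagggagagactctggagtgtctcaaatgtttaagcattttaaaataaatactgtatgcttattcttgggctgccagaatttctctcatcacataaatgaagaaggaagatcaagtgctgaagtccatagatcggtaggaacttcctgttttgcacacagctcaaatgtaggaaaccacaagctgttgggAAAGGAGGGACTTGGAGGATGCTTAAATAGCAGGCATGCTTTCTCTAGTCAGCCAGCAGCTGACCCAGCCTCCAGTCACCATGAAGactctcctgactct
Lyz1 promoter: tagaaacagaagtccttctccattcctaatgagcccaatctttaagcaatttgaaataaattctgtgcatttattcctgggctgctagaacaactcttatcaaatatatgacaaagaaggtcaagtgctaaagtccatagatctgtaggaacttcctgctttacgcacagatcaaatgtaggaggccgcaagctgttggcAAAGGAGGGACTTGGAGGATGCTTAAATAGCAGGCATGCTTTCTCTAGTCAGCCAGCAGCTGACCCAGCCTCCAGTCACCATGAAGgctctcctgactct

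The letters GAGGAA, the core of many PU.1 sites, or their reverse complement TTCCTC occur in the same windows of Itgam, Mrc1 and Cd68 and not in those of Fcer1g, Lyz2, Lgals3 or Lyz1. That is 3 of the 6 markers with a promoter in the RefSeq table, while 28.3% of all 32851 annotated starts hold them.

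**Figure D4:**
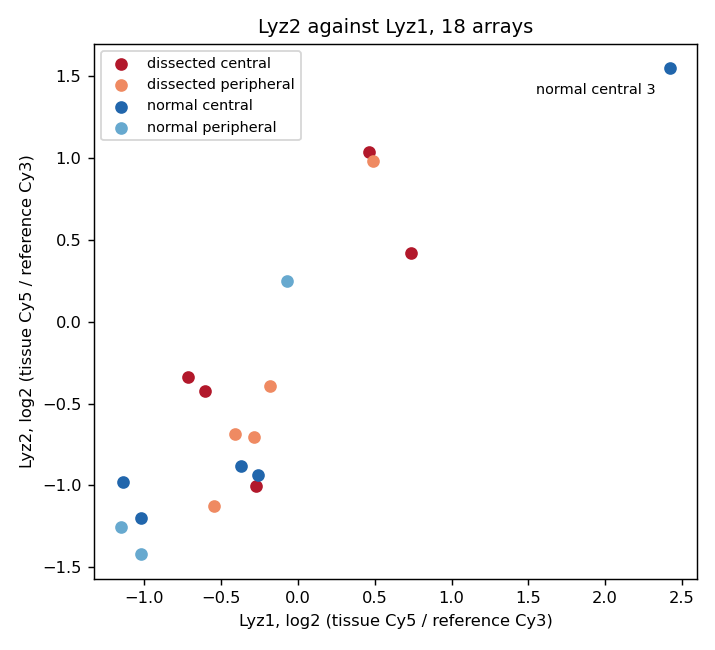
Log2 ratio of Lyz2 (vertical axis) against that of Lyz1 (horizontal axis) on the 18 arrays, with colours for the 4 groups. Both genes were highest on normal central 3, at 1.55 for Lyz2 and 2.42 for Lyz1, and the other arrays follow the same order loosely.

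Lgals3 encodes galectin-3 (Mac-2), a galactoside-binding lectin that macrophages secrete and that several epithelia and tumours of the thyroid also make. Its log2 ratios in the central area, from the probe shown above, were 0.55, 0.02, -0.02, -0.07 and -0.69 on the dissected arrays, against -0.34, -0.59, -0.39, -0.68 and -1.16 on the normal arrays. Those of the peripheral area were 0.19, -0.58, 0.75, 0.91 and -0.13 on the dissected arrays, against -0.36, -1.51 and -1.02 on the normal arrays. In each area 4 of 5 dissected arrays lay above every normal array and the remaining dissected array lay within the normal range. The means were -0.04 ± 0.44 in dissected central, 0.23 ± 0.62 in dissected peripheral and -0.63 ± 0.33 in normal central tissue (SD, n = 5 each), and -0.96 ± 0.58 in normal peripheral tissue (SD, n = 3).

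The peripheral difference of Lgals3, dissected minus normal, was 1.19 (SE 0.33, 95% interval 0.49 to 1.89, limma adjusted p = 0.446, unadjusted 0.0023), a fold of 2.29. The central difference was 0.59 (SE 0.29, 95% interval -0.02 to 1.20, limma adjusted p = 0.956, unadjusted 0.057), a fold of 1.5. Averaged over both areas the difference was 0.89 (SE 0.22, 95% interval 0.42 to 1.35, limma adjusted p = 0.274, unadjusted 0.00082), which ranked 44 among 14684 genes by p. Dissected exceeded normal on all 5 slides that held both central groups, by 0.36 to 0.88, and on all 3 slides that held both peripheral groups, by 0.55 to 1.93. On the 2 scan days the peripheral difference was 1.85 and 0.76, and the first of these rests on 1 normal peripheral array. With median centring in place of loess, Lgals3 was called in the peripheral area at 1.63 (limma adjusted p = 0.0294), where the median over all genes was itself 0.23, leaving 1.40 relative to it. In that fit 7 of 14684 genes were called in this comparison, all higher. Other sources of Lgals3 in the captured tissue were not separated: the mean over 11 measured thyrocyte genes was 0.05 in dissected central, 0.23 in dissected peripheral, 0.04 in normal central and 0.01 in normal peripheral tissue, and its part in the Lgals3 difference was not tested. Of 8 listed other galectins and galectin-binding genes, 4 were measured and 0 were called by limma. Of these, 2 had an unadjusted p under 0.05 in the peripheral area, both lower, against 8.34% of all genes in either direction. They were Lgals4, a galectin of the gut lining (-0.93, SE 0.28, limma adjusted p = 0.469), and Lgals3bp, a secreted glycoprotein that binds galectin-3 (-0.84, SE 0.40, limma adjusted p = 0.598), and both were singled out after their values were seen.

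Between the areas, no marker was called by limma in normal thyroid (0 of 9, with 0.279% of all genes called) or in dissected thyroid (0 of 9, with 0.586% of all genes called). In normal thyroid 1 marker had an unadjusted p under 0.05, lower in the central area, against 2.87% of all genes in that direction and 8.57% in either. It was Adgre1, whose central minus peripheral difference was -0.95 (SE 0.34, 95% interval -1.66 to -0.24, limma adjusted p = 0.390, unadjusted 0.0113), below 0 on all 3 slides that held both groups. That difference was -0.42 with median centring, where the median over all genes was 0.28, and -0.59 on the second scan day. In dissected thyroid 0 markers had an unadjusted p under 0.05, against 7.42% of all genes, and the Adgre1 difference was -0.10 (SE 0.29, limma adjusted p = 0.975). The medians over the 9 markers were -0.07 in normal and -0.0039 in dissected thyroid, beside 0.01 and -0.0023 over all genes, and with median centring the marker median in normal thyroid was 0.29, or 0.02 relative to all genes. The median for dissected thyroid was -0.17 with median centring.

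Averaged over both states, 0 of 9 markers were called by limma between the areas, where 1.42% of all genes were, and 1 marker, Adgre1, had an unadjusted p under 0.05 (-0.53, SE 0.22, limma adjusted p = 0.504), against 8.4% of all genes (2.36% lower in the central area). The test of whether the change after dissection differed between the areas called 0 of 9 markers and 0% of all genes, with 0 markers at an unadjusted p under 0.05, against 5.83% of all genes. The F test among the 4 groups called 0 of 9 markers, where 1.06% of all genes were called, with 2 markers and 8.93% of all genes at an unadjusted p under 0.05, and its smallest adjusted p in limma was 0.240, for Lgals3. Csf1r had central minus peripheral differences of -0.23 in normal and -0.33 in dissected thyroid, and without the 4 weakest arrays the second was -0.75 (SE 0.22, limma adjusted p = 0.165).

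Of 36 other macrophage genes listed, 28 were measured and 0 were called by limma after dissection. At an unadjusted p under 0.05 were 3 in the central area, 3 in the peripheral area and 4 averaged over both areas, all higher. Of all genes, 1.95%, 4.43% and 3.6% were higher at that p. Ctss, the lysosomal protease cathepsin S, was higher by 0.61 in the central and 0.80 in the peripheral area (averaged 0.70, SE 0.18, limma adjusted p = 0.295). Apoe, the lipid carrier apolipoprotein E, which was singled out after its values were seen, was higher by 0.76 averaged over both areas (SE 0.19, limma adjusted p = 0.276). C1qb, a chain of complement C1q, was above background on 4 arrays and differed by 0.07 averaged over both areas (SE 0.08). C1qa, also listed, had no kept probe. The median over the 28 genes was 0.09 averaged over both areas, and 21 of them lay above 0, while 48.7% of all genes did.

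The 12 listed lysosomal and lysozyme relatives of Cd68 and Lyz2 were all measured, and 0 were called by limma. In the peripheral area 2 had an unadjusted p under 0.05, both higher, against 4.43% of all genes in that direction. Lamp1, a major lysosomal membrane protein, was 0.33 ± 0.23 in dissected (SD, n = 5) and -0.37 ± 0.35 in normal peripheral tissue (SD, n = 3), a difference of 0.70 (SE 0.17, limma adjusted p = 0.358) with no overlap between the arrays, which held for 4.2% of all genes. Cd63, a tetraspanin of late endosomes, was higher there by 0.61 (SE 0.20, limma adjusted p = 0.525). Lamp1 and Cd63 are made by most cell types. In the central area the same genes differed by 0.06 (SE 0.14) and -0.07 (SE 0.18).

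Of 20 listed cytokines, chemokines and enzymes of activated macrophages, 10 had a kept probe and 0 were called by limma, and Tnf, Il6, Il10, Nos2 and Arg1 were among those with none. In the central area all 10 lay above 0 for dissected minus normal (median 0.22), with 0 at an unadjusted p under 0.05. In the peripheral area 5 of 10 lay above 0, with a median of 0.05. Of all genes, 48.7% lay above 0 in the central and 51% in the peripheral area. Of 12 listed integrin partners and ligands of Itgam, 7 were measured and 0 were called by limma. Itgb2, the beta chain that pairs with CD11b, differed by 0.16 averaged over both areas (SE 0.15, limma adjusted p = 0.869).

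Markers of other blood cells and tissues were set beside these values. Of 8 genes shared by all leukocytes, all were measured and 0 were called by limma. Their median difference, dissected minus normal and averaged over both areas, was 0.27. Of them, 2 had an unadjusted p under 0.05, against 7.03% of all genes in either direction. Ptprc, the leukocyte antigen CD45, differed by 0.30 (SE 0.21, limma adjusted p = 0.815). Corresponding medians were 0.27 over 6 dendritic cell genes, 0.11 over 4 neutrophil genes, -0.02 over 7 T and NK cell genes, -0.29 over 3 B cell genes and -0.02 over 10 endothelial genes. It was 0.10 over 9 fibroblast and 0.06 over 8 fat cell genes. The 6 measured skeletal muscle genes all lay above 0, with a median of 0.59, and 0 were called or had an unadjusted p under 0.05. The mean log2 ratio over the muscle genes ran from -1.31 to 1.12 in dissected central, from -1.41 to 1.04 in dissected peripheral, from -1.71 to 0.78 in normal central and from -1.37 to -0.33 in normal peripheral tissue. C cell genes had the median farthest from 0 of these lists, at -0.86 for dissected minus normal averaged over both areas. All 12 measured lay below 0, and 0 were called by limma. Of them, 10 had an unadjusted p under 0.05, against 7.03% of all genes in either direction. The mean over these genes was 0.27 in dissected and 0.97 in normal central tissue, with medians over the arrays of 0.75 and 0.82. The lower dissected central mean rests in part on dissected central 2 (-1.31), whose label was questioned above. In the peripheral area the mean was -2.37 in dissected and -1.54 in normal tissue. Between the areas, limma called 9 of the 12 in normal and 11 in dissected thyroid, all higher in the central area. The called genes were Calca, Chga, Chgb, Scg2, Scg3, Pcsk1, Pcsk2, Ddc, Snap25, Gfra4 and Foxa2, among which Calca encodes calcitonin. The part of these cells in the marker values was not tested.

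From array to array the markers varied together only loosely, and these correlations are descriptions over arrays that share their reference, slides and amplification. Of the 36 correlations between 2 markers over 18 arrays, 32 were positive, with a median r of 0.25 and a range from -0.53 (Mrc1 with Lgals3) to 0.68 (Cd14 with Lyz2). With the group means taken off, 30 were positive and the median was 0.23. Tyrobp followed the mean of the other markers most closely (r = 0.77) and Mrc1 least (r = -0.05). Averaged over the markers, each centred over the arrays, the 2 highest arrays were dissected peripheral 4 (0.57) and dissected central 1 (0.38), and the 2 lowest were normal peripheral 2 (-0.46) and normal central 4 (-0.42).

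The 10 genes most like that average, among 14675 non-members and over 18 arrays, were led by Selplg (r = 0.80), which encodes the selectin ligand PSGL-1 of leukocytes, followed by S100a14 (r = 0.79), Apoe (r = 0.76), Csf2rb (r = 0.75), the shared beta chain of the GM-CSF, IL-3 and IL-5 receptors, and Pgd (r = 0.74), an enzyme of the pentose phosphate pathway. The other 5 were Serping1, Ap5z1, AK034929, Ptpn18 and Mapkapk5. With the group means taken off, the leading genes were 1110017D15Rik (r = 0.80), Selplg (r = 0.80), Serping1 (r = 0.79), the C1 inhibitor of complement, and Lyz1 (r = 0.78). The other 6 were Col17a1, Arfgap2, Gpr182, Bnip1, Trbv14 and Slc22a15.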

How the data were processed

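The authors deposited 1 Agilent Feature Extraction scanner file per array, from the version 9.5.1.1 named in the file headers (the submitters' processing notes name 8.5.1.1). Per the file headers these hold spot and local background intensity in both channels, the program's processed intensity, a log10 ratio of Cy5 over Cy3, and flags for spots above background or saturated. A table of linear ratios, deposited by the authors too, comes with no processing step in the sources used here. Its column medians were 0.871 to 1.06, and each column followed that array's scanner log ratio after centring each probe (lowest correlation 0.98). Linear scale, direction and centring were thus read from the values, and earlier steps stay unknown. It served as an alternative.

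Of 45018 spots per array, 1639 were controls. Intensities were background-corrected with normexp (offset 50) and normalized within arrays by loess, controls at weight 0, and at most 108 non-uniform spots per array were dropped. Probes with Cy5 well above background on at least 3 arrays were kept (19107), and the brightest probe on average stood for its gene. Gene names came from accessions in RefSeq tables of GRCm38.p6 for 22951 probes, from a current symbol for 6659 and an older symbol for 3109, while 8455 kept the name in the files. Probe positions are on mm7, no genome of which was used here, so exons and untranslated regions under probes were not determined.

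Samples were grouped by the labels. With limma 3.58.1 (R 4.3.3), a linear model with a mean for each of 4 groups took in all 18 arrays (read with data.table version 1.17.8 and jsonlite 2.0.0), followed by eBayes and Benjamini-Hochberg adjustment over 14684 genes. Genes were called at an adjusted p under 0.05, and tests are two-sided. The fit was tested on simulated data with independent noise on each array, so a sharing of slides or mice between arrays was not covered. Figures were drawn with matplotlib 3.10.9 in Python 3.11.15. Genes named are all members, 16 listed partners and markers whatever their values (such as Csf1, Il34, Ctss and Lamp1), listed genes called in any comparison, and the 10 genes most correlated with the members' mean, with and without group means, besides exceptions stated as such. The members and lists were chosen with earlier results of these data known. Dyes were not swapped, so a dye bias that is constant over arrays cancels in differences between groups. Slides and scan days were read from the file headers, and replicate numbers from the labels. Alternatives covered the normalization, the deposited values, the reference channel, the filter, slide, scan day, replicate number, weak arrays and each array left out.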

Additional observations from a re-analysis of the deposited data

Results flagged for a closer look

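The Lyz2 log2 ratio of 1.55 on normal central 3 lay far from the other 4 arrays of its group, which had -0.88, -0.94, -1.20 and -0.98. Its gap to the nearest array, relative to the range of the group, exceeded the critical value of 0.71 of Dixon's test for 5 values. The test was made in 27 groups of 5 arrays (9 markers in 3 groups), and chance flags about 1 in 20. Lyz1 was also highest on that array, at 2.42. Without normal central 3 the Lyz2 difference, dissected minus normal, in the central area was 0.94 in place of 0.43, and neither value was called by limma.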

How the results depend on the processing

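Results were recomputed under 32 other settings. The number of markers called stayed at 0 in all of them for every comparison except 2: with median centring in place of loess, 1 marker, Lgals3, was called for dissected minus normal in the peripheral area (1.63, adjusted p = 0.0294) and 1, Lgals3, in the F test among the 4 groups (adjusted p = 0.0125), and the cause was not tested. In that peripheral comparison with median centring, 7 of 14684 genes were called, all higher. The median over the markers for dissected minus normal ran from 0.04 to 0.43 in the central, 0.02 to 0.61 in the peripheral area and 0.19 to 0.45 averaged. The number at an unadjusted p under 0.05 ran from 0 to 3, 0 to 4 and 1 to 4. With each array left out in turn the number called ranged from 0 to 0 in every comparison. Median centring moved the median of all genes to -0.15 (dissected minus normal, central), 0.23 (dissected minus normal, peripheral), 0.28 (central minus peripheral, normal) and -0.12 (central minus peripheral, dissected). The value table moved it to 0.13 for central minus peripheral in normal thyroid and 0.11 for dissected minus normal in the peripheral area. Fits to only the 2 groups compared give no value for the averaged comparisons, the difference between areas or the F test.

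Over the settings the averaged Lgals3 difference, dissected minus normal, ran from 0.71 to 1.17 (adjusted p 0.135 to 0.663), the peripheral one from 0.76 to 1.85 and the central one from 0.37 to 0.76. The central difference ran from 0.66 to 1.15 for Adgre1 and from 0.26 to 0.66 for Tyrobp, and the central minus peripheral difference of Adgre1 in normal thyroid from -1.58 to -0.42. The number of all genes called, 41 for central minus peripheral in normal thyroid, ran from 0 to 154. The 86 called in dissected thyroid ran from 0 to 195, the 209 averaged over both states from 0 to 269, and the 155 of the F test from 0 to 197. Leaving out single arrays moved the 41 to between 1 (without normal peripheral 2) and 76 (without dissected central 2) and the 86 to between 46 (without dissected central 3) and 173 (without dissected central 2). After dissection the number called ran from 0 to 1 in the central area, 0 to 7 in the peripheral area and 0 to 2 averaged, and for the difference between areas from 0 to 4.

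With the replicate number as a block, 0 markers were called in any comparison or the F test. Of 21 same-numbered pairs of arrays on 1 slide, 9 had deviations from their group means correlated above 0.1 (range -0.07 to 0.29, median 0.09), against 6 of 93 pairs with another number and slide (median -0.01), and the 3 same-numbered pairs on different slides had -0.05 to -0.01. Between dissected central and dissected peripheral 4 of 5 pairs were above 0.1 and all 5 above 0 (0.07 to 0.21). The 3 pairs with another number on 1 slide had -0.05 to 0.12 (median 0.10, 1 above 0.1). Number and slide nearly coincide, so these values cannot decide whether the numbers pair the samples. The main fit did not use the numbers as pairs, although arrays of 1 slide deviate together in part. Under that block the calls between areas in normal thyroid were 4 genes in place of 41. Slide as a random block had a correlation of 0.08. Dim probes limit Cd68, Cd14 and Mrc1, and Itgam could not be read.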
